A study of Mus musculus with 2 samples.

Results

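TOBF1 peaks were examined around 9 genes of the Nodal and BMP signalling pathways in mouse embryonic stem (ES) cells. The Nodal arm held 5 genes (Nodal, Tdgf1, Lefty1, Lefty2 and Smad7) and the BMP arm held 4 (Bmp4, Id1, Id2 and Id3), out of 21887 protein-coding genes. A peak counted as near a gene when its midpoint lay inside the gene or within 50 kb of it, which gave 16 peaks out of the 12012 on chromosomes 1 to 19, X and Y. The peaks came from a chromatin immunoprecipitation and sequencing (ChIP-Seq) library of R1/E cells that carried tagged TOBF1 on a BAC, a large piece of genomic DNA, and were grown in serum with LIF. The gene of TOBF1 is A830080D01Rik, for which RefSeq uses the symbol Bclaf3. The series holds this 1 library, made with a GFP antibody from chromatin fixed with formaldehyde and DSG, and 1 input library with the same construct and no antibody, of which nothing was analysed here. Whether the cells were 1 clone is not given in the sources used here, and no library of untagged cells was used. With 1 library there is no replicate error, so all values below are descriptions without a test. A peak list holds no expression levels, so the ES cell label was not checked against marker genes.

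Nodal and the bone morphogenetic proteins (BMPs) belong to the TGF-beta family of secreted ligands. Nodal acts through activin receptors together with the co-receptor Cripto, the product of Tdgf1, and passes its signal to Smad2 and Smad3, which enter the nucleus and act with partners such as Foxh1. Lefty1 and Lefty2 are secreted inhibitors that Nodal signalling itself switches on, and Smad7 is an inhibitory Smad that acts inside the cell on both TGF-beta and BMP receptors. BMP4 signals through Smad1, Smad5 and Smad9. In mouse ES cells BMP4 is known to raise the Id genes, whose products bind basic helix-loop-helix factors and keep them from DNA, and with LIF this helps to hold the cells undifferentiated.

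The genome around the genes is shown by their promoters, since no genome sequence was used from which the peaks themselves could be read. RefSeq promoter sequences (GRCm38.p6, the assembly behind mm10) were found for 5 of the 9 genes, namely Nodal, Tdgf1, Bmp4, Id2 and Id3, and not for Lefty1, Lefty2, Smad7 or Id1. Of these 5, Nodal, Tdgf1 and Bmp4 had a peak within 2 kb of their start. For these 3 genes and for Id3, which had the highest score, the 250 bases before the start are printed 5′ to 3′ on the strand of the gene. The starts of the other genes were not known here, among them Smad7, which had a peak 393 bp from its lower end. Capitals mark matches to the 5 motifs searched. Nodal lies at chr10:61417722-61417971 (plus strand), Tdgf1 at chr9:110946159-110946408 (minus strand), Bmp4 at chr14:46390670-46390919 (minus strand) and Id3 at chr4:136143572-136143821 (plus strand).
Nodal: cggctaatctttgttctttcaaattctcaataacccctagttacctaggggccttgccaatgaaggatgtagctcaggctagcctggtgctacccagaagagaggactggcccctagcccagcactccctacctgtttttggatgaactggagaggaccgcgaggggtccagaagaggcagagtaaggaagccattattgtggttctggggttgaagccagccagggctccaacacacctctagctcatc
Tdgf1: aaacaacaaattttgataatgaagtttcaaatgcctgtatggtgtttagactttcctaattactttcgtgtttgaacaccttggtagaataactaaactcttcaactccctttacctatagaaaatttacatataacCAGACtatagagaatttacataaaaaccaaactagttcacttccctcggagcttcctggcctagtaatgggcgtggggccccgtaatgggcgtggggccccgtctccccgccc
Bmp4: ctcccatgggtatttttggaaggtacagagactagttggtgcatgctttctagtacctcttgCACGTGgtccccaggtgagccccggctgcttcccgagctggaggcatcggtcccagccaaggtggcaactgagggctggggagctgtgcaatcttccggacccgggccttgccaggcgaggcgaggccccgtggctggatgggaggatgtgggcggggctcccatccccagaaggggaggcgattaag
Id3: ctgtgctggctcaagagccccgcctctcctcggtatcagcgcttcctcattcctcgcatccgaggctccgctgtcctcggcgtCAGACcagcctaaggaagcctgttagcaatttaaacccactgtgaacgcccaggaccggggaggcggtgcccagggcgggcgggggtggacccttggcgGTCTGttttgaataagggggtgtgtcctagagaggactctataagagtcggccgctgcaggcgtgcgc

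None of the 5 promoter windows, which run from 250 bases before the start to 50 after it, overlapped a peak. The matching share of all promoters was not counted, so this does not set the 5 apart. The motifs were searched on both strands of the 5 windows. CAGAC, the Smad box, occurred in Tdgf1 (113 bases before the start) and at a pair of places in Id3 (167 and 68 bases before it), and in 49.6% of all 32851 promoters. GGCGCC, a GC-rich site known to be bound by Smad1 and Smad5, occurred in Id2 (231 bases before the start) and in 11.9% of all promoters. CACGTG, the E box, occurred in Bmp4 (188 bases before the start) and in 7.15% of all. The Foxh1 motif AATCCACA (0.855% of all) and the octamer ATGCAAAT (1.74% of all) were in none of the 5. Nodal held no match to any of the motifs. The printed stretches differed in base composition, with 53.2% G and C in Nodal and 42.0% in Tdgf1, against 63.2% in Bmp4 and 62.8% in Id3, while the median of all promoters was 52.4%.

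All 5 Nodal arm genes and 3 of the 4 BMP arm genes had a peak within 50 kb, that is 8 of 9, where 42% of all protein-coding genes had one. Id1 was the gene without a peak. The exact (Clopper-Pearson) 95% interval of the share was 47.8 to 100% for the Nodal arm and 19.4 to 99.4% for the BMP arm. These intervals overlap widely, cover counting error only, and treat the Lefty genes, which share their peaks, as separate. They also treat the genes as random draws, whereas the 9 were chosen with earlier results of these data known. Here and below, neither the intervals nor the shares of all genes set beside them test a difference. The 9 genes are short, and of the 14084 protein-coding genes no longer than Smad7 (28571 bp), the longest of them, 34.8% had a peak within 50 kb.

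**Figure D1:**
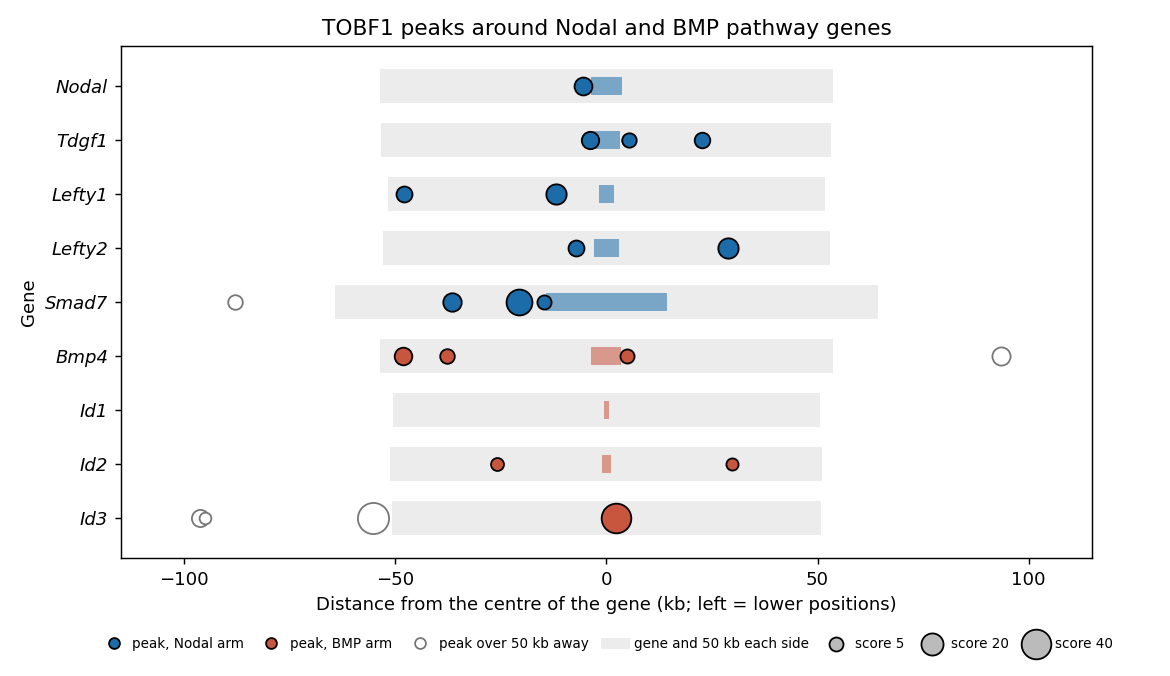
Peaks around each of the 9 genes, by distance from the centre of the gene (kb); a bar in colour is the gene, the grey band is the gene with 50 kb on each side, and the area of a circle grows with the score. The peaks of Lefty1 and Lefty2 are the same 2 peaks, the 2 peaks just above Tdgf1 lie on top of each other, and Id1 has none.

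The ligand gene Nodal (gene ID 18119, chromosome 10, 61417972 to 61425338) had 1 peak within 50 kb, and none further out up to 100 kb. It lay 1.89 kb upstream of the start (61415992 to 61416179, 188 bp wide). Its score was 11.3, where the score is the peak caller's own value, taken to be −log10 of a q-value. The median score of all 12012 peaks was 10.0, so the peak at Nodal ranked near the middle of the list, with 44.3% of peaks scoring as high or higher. The nearest other protein-coding gene, Eif4ebp2, a regulator of translation, lay 3.15 kb from Nodal, but the peak was closer to Nodal.

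Tdgf1, the co-receptor gene (gene ID 21667, chromosome 9, 110939608 to 110946158), had 4 peaks, the most of the 9 genes. Only 4.65% of protein-coding genes had as many within 50 kb. The peak with the highest score, 10.5, lay 518 bp past the end of the gene opposite its start (110938765 to 110939416). At 652 bp it was the widest of the 16 peaks and ranked 207th by width of the 12012, whose median was 216 bp. A pair of narrow peaks lay upstream, 1.72 kb (110947770 to 110947990, score 2.29) and 2.03 kb (110948103 to 110948275, score 5.58) before the start. Only 112 bp separated the edges of these 2, and 98.5% of all peaks scored at least as high as the weaker of them. The remaining peak, with a score of 7.41, lay 19.3 kb upstream of the start and inside the neighbouring gene Lrrc2 (110965337 to 110965644). The 4 scores thus ran from the bottom of the list to its middle, with a median of 6.49.

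Lefty1 (gene ID 13590, chromosome 1, 180935022 to 180938401) and Lefty2 (gene ID 320202, chromosome 1, 180893108 to 180899107) are neighbours with 35.9 kb between them. They shared the same 2 peaks, so their counts are not independent. The peak with the higher score, 16.1, lay between the genes (180924772 to 180924965), 10.2 kb below Lefty1 and 25.8 kb above Lefty2. The other, with a score of 8.05, lay 4.27 kb below Lefty2 (180888764 to 180888905) and 46.2 kb below Lefty1. At 142 bp it was the narrowest of the 16 peaks. In each case the nearest protein-coding gene was a Lefty gene, although Tmem63a, a membrane protein gene, lay only 3.89 kb from Lefty1. The 2 Lefty genes are close relatives, and how reads at repeated sequence were kept is not given in the sources used here; neither peak lay inside either gene.

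Smad7 (gene ID 17131, chromosome 18, 75367365 to 75395935) had 3 peaks, all below its lower end. Their scores were 12.4 at 22.2 kb (75345004 to 75345245), 29.3 at 6.30 kb (75360916 to 75361216) and 5.21 at 393 bp from the gene (75366831 to 75367113). The middle peak had the highest score of the Nodal arm, and 14.1% of all peaks scored as high or higher. The peak closest to the gene had the lowest score of the 3. Smad7 was the nearest protein-coding gene for each of them. Another peak, 73.7 kb below Smad7 (score 5.86), was outside the window and closest to Dym.

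**Figure D2:**
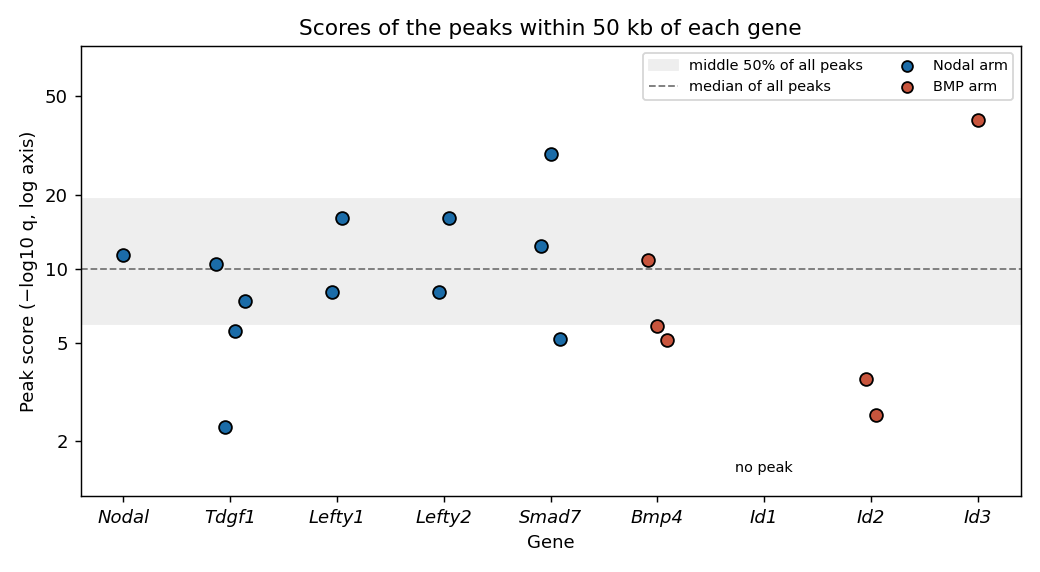
Score of every peak within 50 kb of each gene (−log10 of a q-value, log axis; each point is 1 peak), with the median (10.0, dashed) and the middle 50% (6.0 to 19.2, grey) of all 12012 peaks. Smad7 and Id3 have peaks above the grey band, while both peaks of Id2 lie below it; the points of Lefty1 and Lefty2 are the same peaks.

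In the BMP arm, the ligand gene Bmp4 (gene ID 12159, chromosome 14, 46383525 to 46390669) had 3 peaks. The closest lay 1.36 kb upstream of the start (46391956 to 46392111) and had the lowest score of the 3, 5.14. The others lay far past the opposite end, 34.1 kb away (46349302 to 46349479, score 5.88) and 44.6 kb away (46338778 to 46339167, score 10.8). Bmp4 stands alone in its region, with no other protein-coding gene within 50 kb and the nearest, Cdkn3, a cell cycle phosphatase gene, 369.8 kb away. Another peak with a score of 11.9 lay 89.9 kb upstream of Bmp4, outside the window, and Bmp4 was its nearest protein-coding gene as well.

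The 3 Id genes differed from each other. Id3 (gene ID 15903, chromosome 4, 136143822 to 136145392) had 1 peak, 1.57 kb past the end opposite its start (136146805 to 136147115). Its score of 39.9 was the highest of the 16 peaks, and 8.28% of all peaks scored as high or higher. Among protein-coding genes, 5.54% had a peak of at least this score within 50 kb. A peak with an even higher score, 44.6, lay 54.5 kb upstream of Id3 (136089225 to 136089476), just outside the window. That peak was closer to Rpl11, a ribosomal protein gene, at 36.0 kb. Just inside the window, the outermost peaks were the one 46.2 kb from Lefty1 and the one 44.6 kb from Bmp4.

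Id2 (gene ID 15902, chromosome 12, 25093799 to 25096092) had 2 peaks with low scores. One with a score of 3.57 lay 24.9 kb past the end opposite the start (25068853 to 25069018), 5.78 kb from Kidins220, a membrane scaffold gene, and the other with a score of 2.57 lay 28.7 kb upstream (25124680 to 25124825). Of all peaks, 93.1% and 97.5% scored at least as high as these. Id1 (gene ID 15901, chromosome 2, 152736251 to 152737410) had no peak within 100 kb. The nearest lay 430.8 kb away (153168157 to 153168300, score 5.11), and 7.26% of protein-coding genes were as far or farther from a peak. Id1, Id2 and Id3, which encode related proteins, therefore had highest scores of none, 3.57 and 39.9.

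Set side by side, the Nodal arm had 10 distinct peaks in 487.8 kb of windows, or 2.05 per 100 kb, and the BMP arm had 6 in 412.2 kb, or 1.46 per 100 kb. Whole chromosomes, up to the last peak of each, held 0.442 per 100 kb. That value includes sequence far from any gene, so it is not a like background for windows around genes. The median number of peaks per gene was 2 in the Nodal arm (1 to 4) and 1.5 in the BMP arm (0 to 3). The ranges overlap, and with 5 and 4 genes the difference was not tested. The median score was 9.26 over the 10 Nodal arm peaks (2.29 to 29.3) and 5.51 over the 6 BMP arm peaks (2.57 to 39.9). Of the Nodal arm peaks, 5 scored at or above the median of the whole list, as did 2 of the BMP arm peaks. Each arm had 1 peak that stood out from its own others, at Smad7 (29.3) and at Id3 (39.9). The higher of these belonged to the BMP arm, although its median was the lower at 50 kb with all peaks. That order of the medians reversed at 10 kb and at 20 kb (8.05 in the Nodal arm, 22.5 over 2 BMP arm peaks). The 2 peaks were those at Id3 (39.9) and close to Bmp4 (5.14). The order also reversed among peaks at or above the list median (12.4 and 25.4). There the BMP arm again held only 2 peaks, that at Id3 and 1 of Bmp4 (10.8). These BMP arm medians thus rest on the Id3 peak and 1 other. At 100 kb the medians were almost the same (8.05 and 7.99). With all peaks at 50 kb, the median width was 231.5 bp in the Nodal arm and 172 bp in the BMP arm. With a window of 100 kb, all 5 Nodal arm genes and 3 of the 4 BMP arm genes had a peak, against 59% of all protein-coding genes. The density in that window was almost the same, at 1.24 per 100 kb in the Nodal arm and 1.23 in the BMP arm, and the median number per gene was 2 in the Nodal arm and 3 in the BMP arm.

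**Figure D3:**
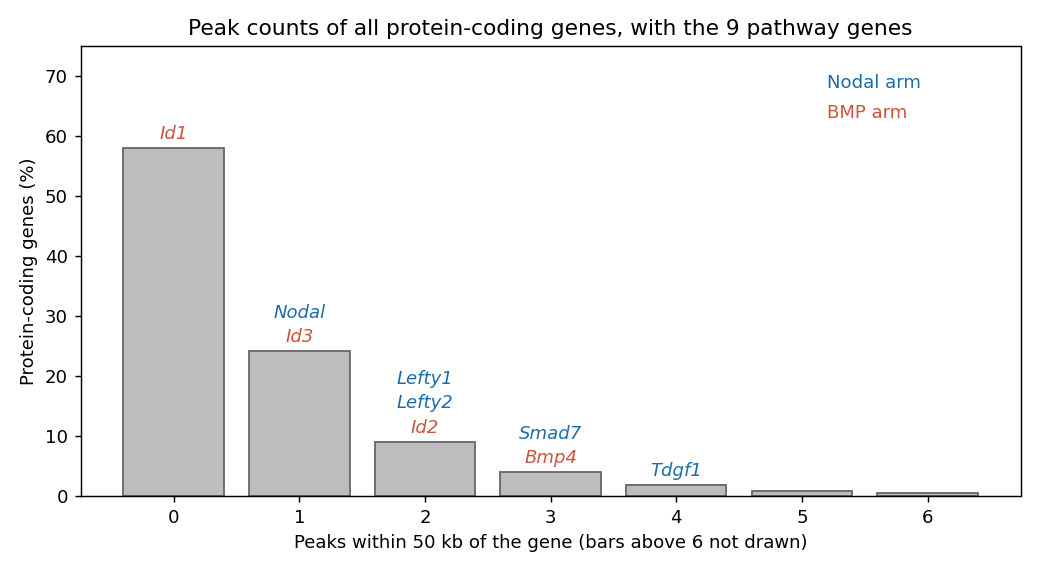
Share of all 21887 protein-coding genes (bars, %) by the number of peaks within 50 kb, with the 9 genes written above the bar of their own count. Id1 is among the 58.0% of genes with none, and Tdgf1 has the most of the 9, with 4.

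The number of peaks per gene was 2 in the median of the 9 genes and 0 in that of all protein-coding genes. At least 2 peaks were found near 6 of the 9 genes (Tdgf1, Lefty1, Lefty2, Smad7, Bmp4 and Id2), against 17.8% of all protein-coding genes. At least 3 were found near Tdgf1, Smad7 and Bmp4, against 8.67%. The peaks were not of high score as a group, with a median of 7.73 over the 16 and of 9.87 over all peaks within 50 kb of any protein-coding gene. None of the 16 peaks lay in a dense region, a run of 6 or more peaks at gaps of up to 10 kb. The share of all peaks in such regions was not counted, so this does not set the 16 apart.

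The nearest peak was closer than 2 kb for Nodal, Tdgf1 and Smad7 in the Nodal arm and for Bmp4 and Id3 in the BMP arm, 5 of the 9 genes, against 15.8% of all protein-coding genes. Within 10 kb, Lefty2 joined these in the Nodal arm, giving 4 of 5 there and 2 of 4 in the BMP arm, against 21.6% of all protein-coding genes and 13% of those no longer than Smad7. Within 1 kb of a gene end there was a peak at 2 of the 5 Nodal arm genes, Tdgf1 and Smad7, and at none of the 4 BMP arm genes, against 2.67% of all. A share of 0 of 4 has an exact 95% interval that reaches 60.2%, and no difference between the arms is read from it. For 9 of the 10 Nodal arm peaks and 5 of the 6 BMP arm peaks a gene of the same arm was the nearest protein-coding gene, the exceptions being the peaks at Lrrc2 and Kidins220. The matching share for other genes was not counted, and Bmp4, with 3 of these peaks, has no other protein-coding gene within 50 kb. None of the 9 genes had a peak inside it, with an exact 95% interval that reaches 33.6%. Of all protein-coding genes 13.5% had a peak inside, and of those no longer than Smad7 4.14%, so 0 of 9 is near the share of other short genes.

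**Figure D4:**
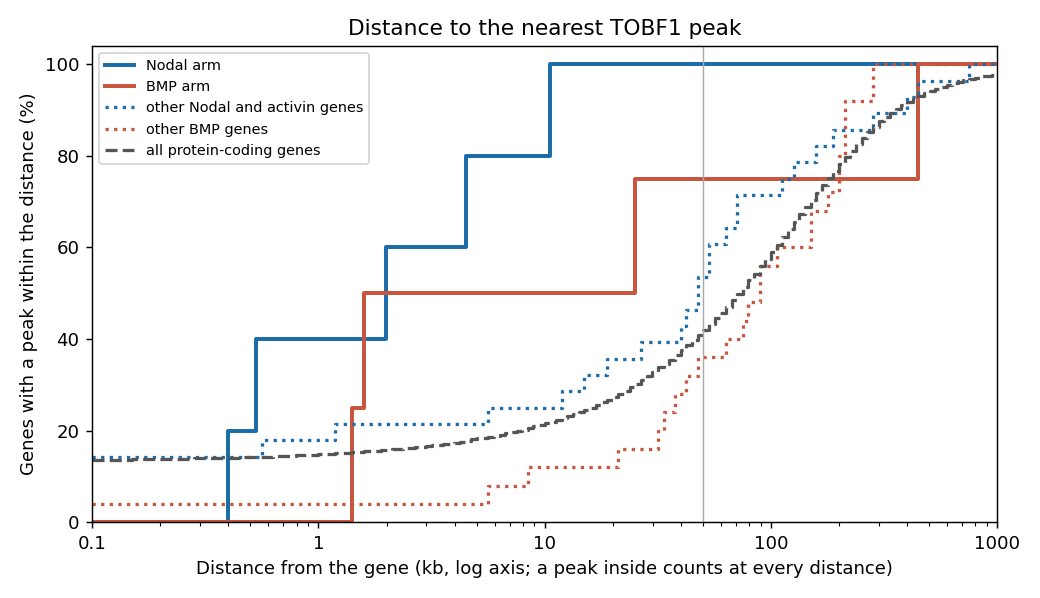
Share of genes (%) with a peak within a given distance (kb, log axis) for the Nodal arm (5 genes), the BMP arm (4), other Nodal and activin genes (28), other BMP genes (25) and all 21887 protein-coding genes; the vertical line marks 50 kb. The Nodal arm reaches 100% at 10.2 kb, while the BMP arm stays at 75% until the peak 430.8 kb from Id1.

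The distance to the nearest peak was 1.89 kb in the median of the Nodal arm (0.393 to 10.2 kb) and 13.2 kb in that of the BMP arm (1.36 to 430.8 kb), against 71.1 kb over all protein-coding genes. The other genes of the pathways lay closer to the level of all genes. Both they and the members of the arms were chosen with earlier results of these data known, and this contrast was not tested. Among 28 further Nodal and activin genes, 15 had a peak within 50 kb (53.6%, interval 33.9 to 72.5%), and the median distance was 45.3 kb. Among 25 further BMP genes, 9 had 1 (36.0%, interval 18.0 to 57.5%), and the median distance was 87.1 kb. Both shares hold the 42% of all protein-coding genes within their intervals. Within 10 kb the counts were 7 of 28 Nodal and activin genes and 3 of 25 BMP genes, against 21.6% of all.

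By role, 4 of 5 other ligand genes of the Nodal and activin list had a peak within 50 kb, as did 4 of 7 receptor or co-receptor genes, 3 of 6 inhibitor genes, 2 of 5 genes of Smads and nuclear partners, 1 of 2 genes of processing enzymes and 1 of 3 target genes. Foxh1 and Smad2 had none. The highest score of this list belonged to a peak 37.7 kb from Gsc, a homeobox target of Nodal (41.9), which was closer to Serpina3n. Gdf3, a ligand that also uses Cripto, had a peak inside the gene (10.3) and another 14.6 kb above it (31.7) that was closer to Dppa3. Pcsk6, a convertase that cleaves the Nodal precursor, had 2 peaks inside the gene with scores of 22.5 and 28.7. It is a long gene, at 188251 bp, and a peak inside was more frequent among all protein-coding genes than among the short ones. The activin inhibitor gene Fst had 2 peaks about 45 kb away, the stronger with a score of 19.5, both closest to Ndufs4. Inhbb, which encodes an activin subunit, had 3 peaks, 1 of them 545 bp from an end (score 3.86) and the strongest 16.6 kb away (19.1). Inhbb was the only gene of the 2 lists with a peak this close to an end.

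In the BMP list, 3 of 5 target genes and 3 of 4 receptor genes had a peak within 50 kb, as did 2 of 8 inhibitor genes and 1 of 5 ligand genes. None of the 3 Smad genes Smad1, Smad5 and Smad9 did. The share of all protein-coding genes was 42%, and these groups are small, so no difference between roles is read here either. The receptor gene Bmpr1b held the peak with the highest score of all genes described here, 89.2, inside the gene (chromosome 3, 141849170 to 141849490), and 0.874% of all peaks scored as high or higher. Bmpr1b spans 332451 bp and is the longest of the pathway genes listed. The homeobox target Msx2 had a peak with a score of 52.6 at 5.34 kb, and Id4, the remaining Id gene, had peaks at 8.32 kb (27.9) and 7.96 kb (3.18). Bmp7 (11.3, at 31.4 kb) and Smurf2, a ubiquitin ligase that acts on Smads and receptors (10.5, at 40.5 kb and closest to Polg2), followed.

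**Figure D5:**
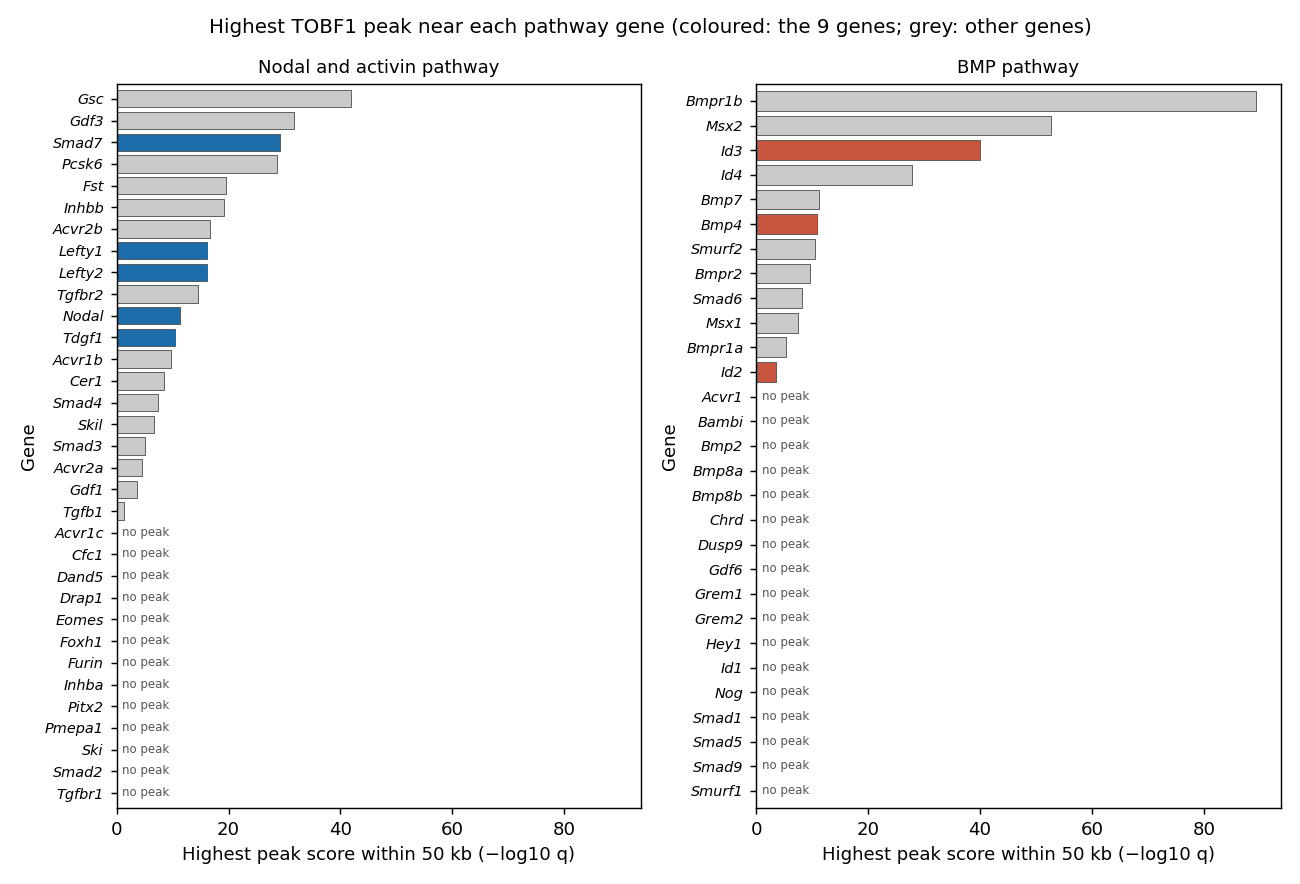
Highest score of a peak within 50 kb (−log10 of a q-value) for each gene of the Nodal and activin pathway (left) and of the BMP pathway (right); the 9 genes are in colour, other pathway genes in grey, and genes without a peak are marked. Smad7 (29.3) comes after Gsc and Gdf3 on the left, Id3 (39.9) comes after Bmpr1b and Msx2 on the right, and Id1 is among the genes without a peak.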

How the data were processed

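The authors deposited 1 list of the peaks of the TOBF1 library. Per the submitters' processing notes, cutadapt, Bowtie2, MACS2 and bedtools were used on mm10; versions, settings and any use of the input as control are not stated there. The score that the authors deposited for each peak was taken to be −log10 of a q-value, since the lowest used here, 1.305, lies just above 1.301, the −log10 of 0.05. Scores depend on read depth, which is unknown, and on local background, and served only to rank and filter within the list. The 169 of 12181 peaks on scaffolds were left out.

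Gene spans came from a RefSeq table of GRCm38.p6, which gives no strand, and starts from the RefSeq promoter table. Positions are counted from 1. Exons, introns and UTRs were not annotated here. The 9 genes, their arms and the lists of 53 other pathway genes were chosen with earlier results of these data known. Named among the others were the 5 highest scores within 50 kb per list and any gene with a peak within 1 kb of an end. Genes without a peak, and Bmpr2, were named after their values were seen. No test was run, because permuting genes or peaks would treat them as replicates. Counting was tested on simulated data. Intervals are exact (Clopper-Pearson, 95%). Alternatives were windows of 10, 20 and 100 kb, a minimum at the median score, any overlap, merging peaks within 1 kb, the nearest protein-coding gene only and dense regions left out. Leaving out Smad7, and a background of genes no longer than Smad7, were added after seeing the data. The tools were matplotlib 3.10.9, pandas 2.3.3, SciPy 1.17.1, NumPy 2.4.6 and Python 3.11.15.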

Additional observations from a re-analysis of the deposited data

How the results depend on the processing

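Under the 8 alternatives set at the start, 4 or 5 Nodal arm genes and 2 or 3 BMP arm genes had a peak, and the median score of the Nodal arm ran from 8.05 to 12.4. The window size changed the comparison of the arms. At 10 kb and at 20 kb the BMP arm kept 2 peaks, with a median score of 22.5, and the Nodal arm exceeded it by 2.44 and 2.47 peaks per 100 kb, while 21.6% and 27.5% of protein-coding genes had a peak. At 100 kb the BMP arm had 10 peaks, the Nodal arm exceeded it by only 0.00777 peaks per 100 kb, the median number per gene was lower in the Nodal arm (difference -1), and 59% of genes had a peak. When peaks below the median score were dropped, 5 peaks were left in the Nodal arm and 2 in the BMP arm, whose median score became 25.4, and 26.8% of genes had a peak. Merging peaks within 1 kb lowered the difference in density to 0.389, since the pair upstream of Tdgf1 became 1 peak. Counting each peak for its nearest protein-coding gene only gave a difference in the median number per gene of 0, and 23.3% of genes with a peak. Under 50 kb with all peaks, the differences were 0.594 peaks per 100 kb and 0.5 peaks per gene. Any overlap, leaving out dense regions and, added after seeing the data, leaving out Smad7 moved no value by over 1.5 times. No paired analysis was possible because there is 1 library and no test.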

Other observations

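Bmpr2, the type II BMP receptor gene, had more peaks within 50 kb than any of the 9 genes, with 8 (chromosome 1). Of all protein-coding genes, 0.845% had at least 8. Bmpr2 spans 113803 bp and Smad7, the longest of the 9 genes, 28571 bp, so the window of Bmpr2 was longer than theirs. None of its 8 peaks lay within 10 kb of Bmpr2. Of these, 7 with scores of 3.35 to 8.40 formed part of a dense region 35.5 to 49.3 kb below Bmpr2 and closest to Nop58, a gene of a nucleolar protein, and the remaining 1 (score 9.64) lay 46.6 kb above Bmpr2 inside Fam117b.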
